A study of Mus musculus with 6 samples.

Results

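The 10 genes described here encode 6 secreted ligands of the transforming growth factor beta (TGF-beta) superfamily and 4 genes that respond to them, and all 10 were found by symbol among the 22320 genes of the authors' comparison table. The ligands were the bone morphogenetic proteins Bmp2, Bmp4 and Bmp7 and the TGF-beta isoforms Tgfb1, Tgfb2 and Tgfb3. The response genes were Id1, Id2 and Id3, which encode inhibitors of basic helix-loop-helix transcription factors, and Smad7, which encodes an inhibitory Smad. Messenger RNA came from whole testes of mice on postnatal day 1.5. The Arid4bSCKO mice were Arid4b-/Flox; Amh-cre and the control mice were Arid4b+/Flox; Amh-cre, both on a hybrid background of C57BL6/J and 129/SvEv. Both groups therefore carried a floxed allele and Amh-cre, a Cre transgene expressed in Sertoli cells, while the null allele of the Arid4bSCKO mice was present in every cell. Each group had 3 pools of 4 testes, and the labels name no litter for a pool. The p-values therefore reflect how far these pools differed, which may be technical.

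BMP and TGF-beta ligands bind paired type I and type II receptor kinases on the cell surface. Activated BMP receptors phosphorylate SMAD1, SMAD5 and SMAD9, and activated TGF-beta receptors phosphorylate SMAD2 and SMAD3; both sets join SMAD4 and enter the nucleus. The Id genes are direct targets of the BMP branch, and Smad6 and Smad7 are induced by the pathway and feed back to shut its receptors off. TGF-beta is secreted in a latent form held in the matrix by latent TGF-beta binding proteins, so messenger RNA of a ligand is not a measure of active ligand. In the newborn testis these signals pass between Sertoli cells, germ cells and the cells around the cords.

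Each value below is the mean that the authors deposited for a group, in units of log2(normalized count + 1), and levels of single pools were not analysed here. A difference is Arid4bSCKO minus control in log2 units, and its 95% interval was derived from the deposited p-value, which has 4 degrees of freedom. Folds are on the same log2(normalized count + 1) scale. The deposited FDR called 0.26% of all genes at 0.05. A moderated limma test, which draws the spread of each gene towards that of genes of like level, called 13.8% of the 19095 genes whose mean level was 1 or more. Higher genes made up 7.37% and lower genes 6.46% of those tested. "Called", "rose" and "fell" refer to this moderated test with Benjamini-Hochberg adjustment at 0.05. Libraries held about 17.5 M reads (M, mega) in the Arid4bSCKO group and 18.6 M in the control group. Arid4b itself had a mean log2 level of 8.68 in Arid4bSCKO testes and 10.19 in control testes, 35.1% of control (adjusted p = 2.23e-05 by the moderated limma test). Testis markers were present in both groups: each of the 12 Sertoli cell, 9 germ cell and 6 fetal Leydig cell genes examined was read in both.

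Tgfb1 and Tgfb3 rose in Arid4bSCKO testes and Smad7 fell, whereas the BMP ligands and the 3 Id genes were not called. Tgfb1 was 1.53-fold and Tgfb3 1.35-fold of control, and Smad7 stood at 64.1% of control. The deposited FDR called 0 of the 10 genes, where 4 had an unadjusted p below 0.05 (Tgfb1, Tgfb3, Smad7 and Bmp7). That unadjusted threshold was passed by 20.9% of all genes. The moderated test called 3 of the 10, 2 higher and 1 lower, against 13.8% of all genes tested. Differences were positive for 7 of the 10, and their median was 0.12, beside -0.04 over all genes tested. When limma was run with neither robust fitting nor a trend over level, 0 of the 10 passed, as did 1.24% of all genes tested, and the adjusted p-values were 0.0869 for Tgfb1, 0.0849 for Tgfb3 and 0.0903 for Smad7. Whole testes were read, so a change in the number of cells of a type and a change in RNA per cell cannot be told apart.

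**Figure D1:**
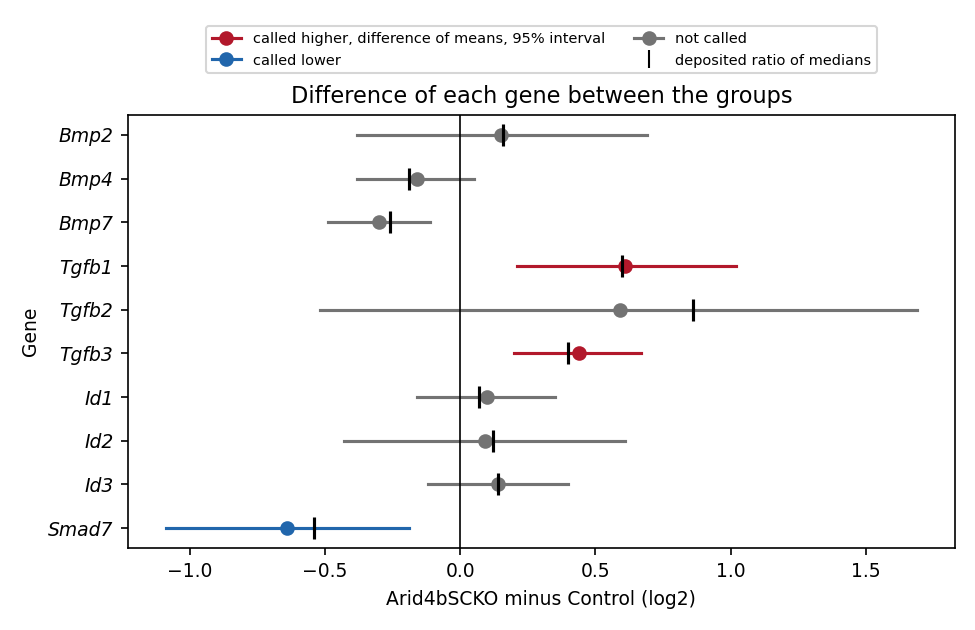
Arid4bSCKO minus control difference in log2 units (horizontal axis) for each of the 10 genes (vertical axis), with the difference of means as a point, its 95% interval as a line and the deposited ratio of medians as a black tick. Tgfb1 (0.61) and Tgfb3 (0.44) lie right of 0, Smad7 (-0.64) lies left of it, and the interval of Tgfb2 runs from -0.52 to 1.69.

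Among the TGF-beta ligands, Tgfb1 (chromosome 7, 25687002 to 25704996, plus strand, mm10), the isoform best known for control of immune cells and matrix, averaged 9.46 in Arid4bSCKO testes and 8.85 in control testes in the authors' deposited table. The difference was 0.61 (95% interval 0.21 to 1.02), a ratio of 1.53 with an interval of 1.15 to 2.03. Its deposited FDR was 0.146 and its moderated limma adjusted p was 0.00959. Tgfb1 is the gene of the 6 ligands with the largest difference of means. Markers of macrophages and other leukocytes, cells known to make TGFB1, moved with it: 12 of 13 tested were called higher. Over all genes tested, the share called higher was 7.37%. None of these markers was at 0, and their summed level was 7354 normalized counts in Arid4bSCKO and 3303 in control. The complement gene C1qa was at 1.20 (0.78 to 1.61) and the mannose receptor gene Mrc1 at 0.52 (0.32 to 0.72). The part of these cells in the difference of Tgfb1 was not tested.

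Tgfb3 (chromosome 12, 86056743 to 86079041, minus strand), an isoform known from palate fusion and, in the rat, from the junctions between Sertoli cells, averaged 10.56 in Arid4bSCKO testes and 10.13 in control testes. The difference was 0.44 (0.20 to 0.67), or 1.35-fold. It had the smallest deposited p of the 10 genes, 0.00684 in the authors' deposited table, with a moderated limma adjusted p of 0.0109. The ratio of medians was 0.40, so mean and median gave nearly the same size.

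Tgfb2 (chromosome 1, 186623186 to 186705992, minus strand), an isoform known for its part in heart and urogenital development, had the widest spread of the 10. Its means were 10.24 in Arid4bSCKO testes and 9.66 in control testes, a difference of 0.59 close to that of Tgfb1, but the interval ran from -0.52 to 1.69 and the moderated limma adjusted p was 0.305. The deposited p implies a standard deviation between pools of 0.49 log2 units for Tgfb2, against 0.18 for Tgfb1 and 0.10 for Tgfb3. Of the genes within 0.5 log2 units of its level, 99.7% had a smaller implied standard deviation, and the median of these genes was 0.12. The deposited ratio of medians was 0.86, which is 0.28 more than the difference of means, so the pools of at least 1 group lay unevenly about their median. Which group this was cannot be read from the means.

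**Figure D2:**
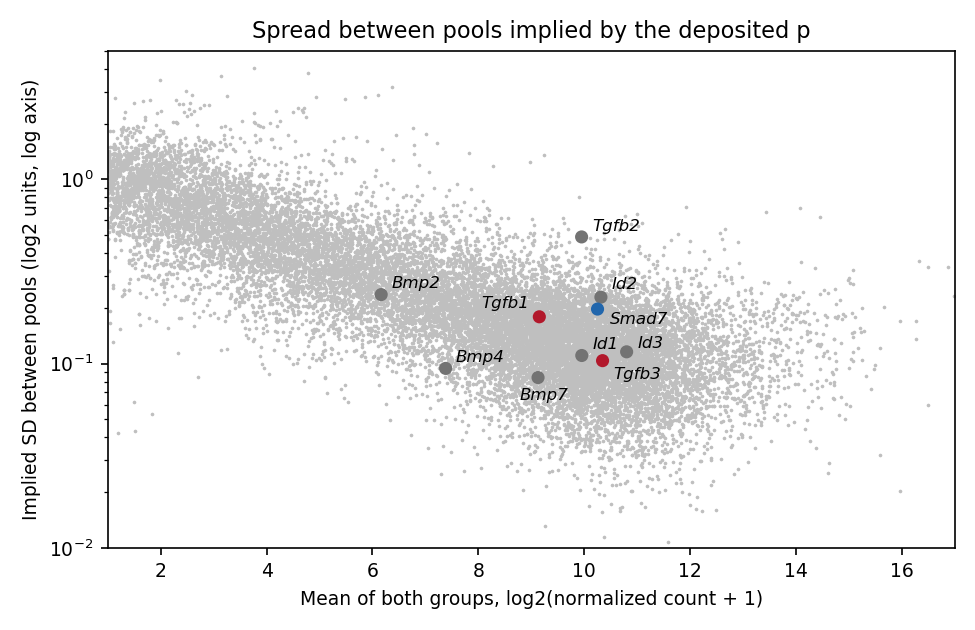
Standard deviation between pools implied by the deposited p (vertical axis, log2 units on a log axis) against the mean level of both groups (horizontal axis, log2) for the tested genes in grey, less 5 outside the axes, with the 10 genes in red (called higher), blue (called lower) and dark grey (not called). Tgfb2 at 0.49 lies above nearly all genes of its level, and Bmp4 at 0.09 and Bmp7 at 0.08 lie low in the cloud.

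The BMP ligands showed smaller differences. Bmp7 (chromosome 2, 172868012 to 172940321, minus strand), known for kidney and eye development, averaged 8.98 in Arid4bSCKO testes and 9.28 in control testes. Its difference of -0.30 (-0.49 to -0.11), 81.4% of control, had an interval below 0 but was not called (moderated limma adjusted p = 0.0746). Bmp4 (chromosome 14, 46383520 to 46390599, minus strand), the signal that starts the germ cell lineage in the embryo, averaged 7.30 in Arid4bSCKO testes and 7.46 in control testes. Its difference of -0.16 (-0.38 to 0.05) leaves a range of 0.77 to 1.04 times control. Bmp2 (chromosome 2, 133552159 to 133562896, plus strand), known for bone and heart formation, had the lowest level of the 10, at 6.24 in Arid4bSCKO testes and 6.09 in control testes, with a difference of 0.15 (-0.38 to 0.69). Neither Bmp4 nor Bmp2 was called (moderated limma adjusted p = 0.51 and 0.70).

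The Id genes, the BMP targets of the set, had positive differences that were not called, each with an interval that includes 0. Id1 (chromosome 2, 152736251 to 152737410, plus strand) averaged 10.00 in Arid4bSCKO testes and 9.91 in control testes, a difference of 0.10 (-0.16 to 0.35). Id2 (chromosome 12, 25093799 to 25096092, minus strand) averaged 10.36 in Arid4bSCKO testes and 10.27 in control testes, a difference of 0.09 (-0.43 to 0.61). Id3 (chromosome 4, 136143822 to 136145392, plus strand) averaged 10.87 in Arid4bSCKO testes and 10.73 in control testes, a difference of 0.14 (-0.12 to 0.40). As ratios, the intervals were 0.898 to 1.27 for Id1, 0.743 to 1.53 for Id2 and 0.919 to 1.32 for Id3, so a change of 2-fold lies outside all 3. Their moderated limma adjusted p-values ran from 0.35 to 0.706. Id4, the remaining gene of the family, picked with its value in view, differed by -0.16 (-0.45 to 0.13). The Id transcripts are short, from 934 to 1278 bases against a median of 2832 over the tested genes, and across 17768 genes difference and transcript length had a rank correlation of -0.21. Once the trend over length was removed, the differences were -0.03 for Id1, 0.01 for Id2 and 0.06 for Id3.

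Smad7 (chromosome 18, 75367365 to 75395934, plus strand), whose product blocks the type I receptors and brings ubiquitin ligases to them, had the largest difference of the 10 by size. It averaged 9.93 in Arid4bSCKO testes and 10.57 in control testes in the authors' deposited table. The difference was -0.64 (-1.09 to -0.19), or 64.1% of control with an interval of 0.47 to 0.874 as a ratio. Its deposited FDR was 0.152 and its moderated limma adjusted p 0.00713, and the ratio of medians was smaller in size, at -0.54. Smad6, the other inhibitory Smad and a gene outside the 10, was also called lower, at -0.70 (-1.04 to -0.36), or 61.6% of control (moderated limma adjusted p = 0.00912). Both inhibitory Smads are known to be strongly expressed in vessels. Of 7 endothelial markers 6 had negative differences, with none called lower and Robo4 called higher. None was at 0, and their summed level was 7437 normalized counts in Arid4bSCKO and 8378 in control, a ratio of 0.888. Much of that sum came from a gene that was not called, with 3638 in Arid4bSCKO and 4581 in control. The part of endothelial cells in the lower inhibitory Smads was not tested.

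**Figure D3:**
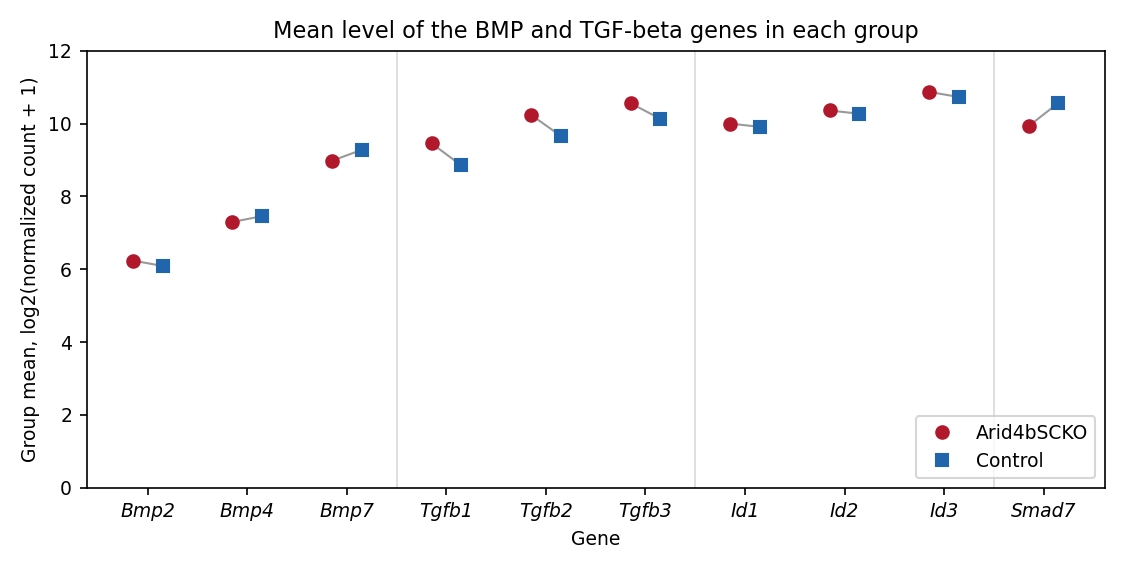
Group means in log2(normalized count + 1) (vertical axis) for the 10 genes (horizontal axis), with Arid4bSCKO as red circles and control as blue squares joined by a grey line; errors per group were not analysed here. The lines slope down to control for the TGF-beta ligands and up to control for Smad7 and Bmp7. They are nearly level for Bmp2, Bmp4 and the Id genes.

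Levels of different genes were compared per kilobase of transcript, as normalized counts per kilobase. The Id genes stood highest in both groups: Id3 had 1466 per kilobase in Arid4bSCKO and 1329 in control. Id1 had 1097 in Arid4bSCKO and 1026 in control, and Id2 had 1035 in Arid4bSCKO and 971 in control. Id1 and Id2 were 0.08 log2 units apart in both groups, less than the implied standard deviation of 0.23. Tgfb3 came next in Arid4bSCKO, with 447 per kilobase, and had 331 in control. Tgfb1 had 323 in Arid4bSCKO and 211 in control, and Tgfb2 had 237 in Arid4bSCKO and 158 in control. Smad7 was the gene that changed place most, at rank 7 in Arid4bSCKO (228 per kilobase) and rank 4 in control (356). In Arid4bSCKO it lay 0.06 below Tgfb2, and in control 0.11 above Tgfb3, gaps smaller than the implied standard deviations of 0.49 and 0.20. Bmp4 and Bmp2 were lowest in both groups, and Bmp7 stood below Tgfb2 in Arid4bSCKO and 0.10 log2 units above it in control, less than the implied standard deviation of 0.49. Bmp7 had 137 per kilobase in Arid4bSCKO and 169 in control, Bmp4 had 75.9 in Arid4bSCKO and 85.0 in control, and Bmp2 had 21.0 in Arid4bSCKO and 18.8 in control. Summed per kilobase, the 3 TGF-beta ligands had 1007 in Arid4bSCKO and 699 in control, and the 3 BMP ligands had 234 in Arid4bSCKO and 273 in control; these sums carry no test.

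**Figure D4:**
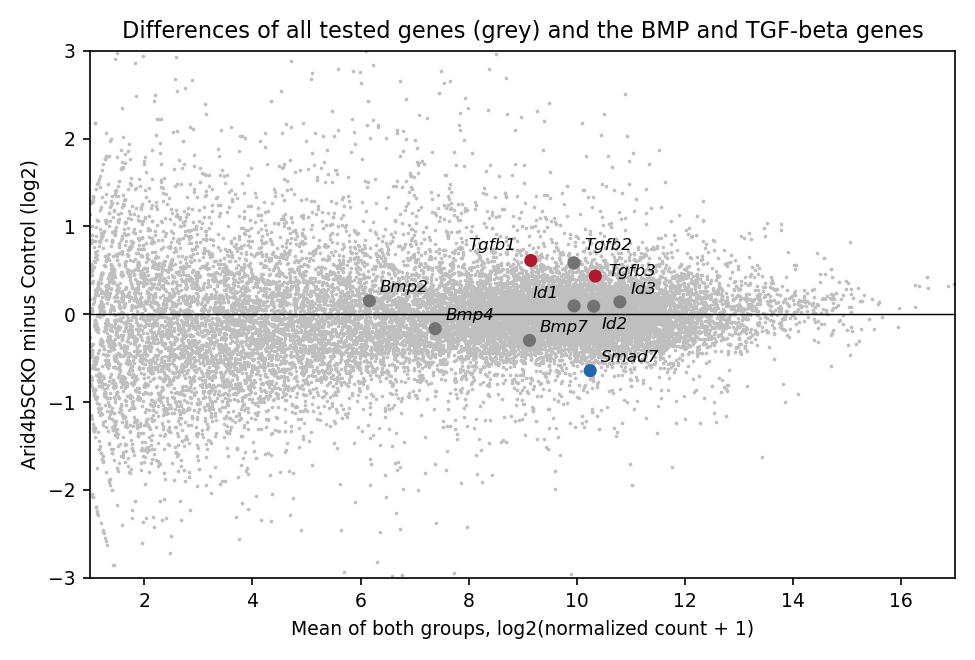
Arid4bSCKO minus control difference (vertical axis, log2) against the mean level of both groups (horizontal axis, log2) for the tested genes in grey, with the 10 genes in red (called higher), blue (called lower) and dark grey (not called). The 10 lie between -0.64 and 0.61, inside the cloud of all genes, and 41 genes beyond 3 log2 units are not drawn.

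Promoters from RefSeq (GRCm38.p6) were available for 5 of the 10 genes, and 4 are shown: Tgfb1, called higher; Tgfb2, with its wide spread; and Id2 and Id3, as targets of the BMP branch. Each line gives the 250 bases before the RefSeq start of the gene on its own strand. Positions count back from that start, whose preceding base is -1. For Tgfb2 the RefSeq start lies just inside the span given above, so the window overlaps that span by a few bases. Capitals mark matches on either strand to GGCGCC (a GC-rich motif of BMP Smads), CAGACA (the box bound by SMAD3 and SMAD4), TGANTCA (the AP-1 site) or GGGCGG (the GC box of SP1).
Tgfb1, chr7:25686752-25687001, plus strand: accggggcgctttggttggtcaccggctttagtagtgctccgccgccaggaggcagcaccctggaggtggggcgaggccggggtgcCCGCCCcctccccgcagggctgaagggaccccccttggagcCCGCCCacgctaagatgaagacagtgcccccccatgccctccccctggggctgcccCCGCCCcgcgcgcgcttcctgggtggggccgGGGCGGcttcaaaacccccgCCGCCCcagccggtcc
Tgfb2, chr1:186705990-186706239, minus strand: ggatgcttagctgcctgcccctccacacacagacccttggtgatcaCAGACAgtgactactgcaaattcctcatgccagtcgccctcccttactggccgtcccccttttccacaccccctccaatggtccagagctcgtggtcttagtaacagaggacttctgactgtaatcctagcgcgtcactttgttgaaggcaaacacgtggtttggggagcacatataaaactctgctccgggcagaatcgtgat
Id2, chr12:25096093-25096342, minus strand: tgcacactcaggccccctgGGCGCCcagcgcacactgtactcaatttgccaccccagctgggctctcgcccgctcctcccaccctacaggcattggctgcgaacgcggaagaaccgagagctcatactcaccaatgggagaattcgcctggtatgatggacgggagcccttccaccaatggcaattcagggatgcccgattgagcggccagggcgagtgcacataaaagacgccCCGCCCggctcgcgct
Id3, chr4:136143572-136143821, plus strand: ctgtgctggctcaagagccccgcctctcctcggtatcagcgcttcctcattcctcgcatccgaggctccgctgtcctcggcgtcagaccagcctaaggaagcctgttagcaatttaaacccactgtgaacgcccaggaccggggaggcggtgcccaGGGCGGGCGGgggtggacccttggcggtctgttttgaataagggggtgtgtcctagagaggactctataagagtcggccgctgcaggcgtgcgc
The Tgfb1 window held 5 GC boxes and was 75.2% G or C. A GC box was found in 32.7% of all 32851 promoter windows of this length. The Tgfb2 window held 1 CAGACA, starting at -204, a motif found in 17.1% of all windows. The Id2 window held 1 GGCGCC, starting at -231 (9.59% of all windows), and 1 GC box. The Id3 window held 2 GC boxes that overlap each other. TGANTCA, present in 6.75% of all windows, was in none of the 4. These are matches of letters and not known binding sites.

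The other genes of the pathway were described from lists by role, 100 distinct genes besides the 10. Of 97 tested, 19 were called, or 19.6% against 13.8% of all genes, with 11 higher and 8 lower and a median of 0.04. The deposited FDR called 0 of the 100, against 0.26% of all genes. An unadjusted p of 0.05 was passed by 29 of these genes, against 20.9% of all genes. Among the called genes the largest differences were those of Cdkn2b and Cyr61, genes that TGF-beta is known to induce, and of Ltbp2 and Ltbp1. Their implied standard deviations were wide, from 0.44 to 0.79 log2 units, each above at least 98.1% of genes of like level. None of these genes was called by limma with neither robust fitting nor a trend over level (adjusted p from 0.0563 to 0.0657).

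Receptor genes had a median of -0.17, and 3 of 12 were called lower and 0 higher. Over all genes tested, 6.46% were called lower and 7.37% higher. Amhr2, the type II receptor for anti-Müllerian hormone, was at -0.57 (-0.90 to -0.25), with means of 11.06 in Arid4bSCKO and 11.63 in control. Acvrl1, the type I receptor of endothelial cells also named ALK1, was at -0.47 (-0.89 to -0.04), next to the endothelial values given above. Bmpr2, the main type II receptor for BMPs, was at -0.34 (-0.58 to -0.11), but without the trend over length it was not called (-0.17, moderated limma adjusted p = 0.252). The 2 signalling receptors for TGF-beta, Tgfbr1 and Tgfbr2, had differences of 0.11 and 0.17 that were not called, though Tgfbr2 was called with the length trend removed (0.32, moderated limma adjusted p = 0.0437). Of the 6 receptor-regulated and common Smads 0 were called by the moderated limma test, where 3 had an unadjusted deposited p below 0.05. That unadjusted threshold was passed by 20.9% of all genes. The smallest p of these Smads was that of Smad5, a BMP Smad, at -0.18 (-0.29 to -0.07). With the length trend removed Smad5 was at -0.05 (moderated limma adjusted p = 0.732). Smad2 and Smad4, picked after their values were seen, were at 0.26 and 0.24 and were called only with other settings: Smad2 with a minimum level of 3 (moderated limma adjusted p = 0.0476), and Smad2 and Smad4 with the length trend removed (0.00747 and 0.0392).

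Intracellular inhibitors had a median of -0.09, and 3 of 11 were called lower and 1 higher. The shares over all genes tested were 6.46% lower and 7.37% higher. Besides Smad6, the lower genes were the TGF-beta corepressor genes Tgif2, at -0.46 (-0.63 to -0.29), and Tgif1, at -0.43 (-0.64 to -0.23). Fkbp1a, whose product FKBP12 binds type I receptors and keeps them inactive, was the one called higher, at 0.89 (0.60 to 1.18) or 1.85-fold, with means of 13.93 in Arid4bSCKO and 13.05 in control. The inhibitory genes thus moved in both directions.

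The list of secreted antagonists and latency proteins, which also held Thbs1 and integrin genes, had a median of 0.12. Of its 25 genes 5 were called higher and 1 lower. The shares over all genes tested were 7.37% higher and 6.46% lower. Ltbp1 and Ltbp2 encode latent TGF-beta binding proteins, of which LTBP1 is known to anchor the latent complex in the matrix and LTBP2 is not known to bind it. Ltbp1 averaged 11.95 in Arid4bSCKO testes and 10.11 in control testes, a difference of 1.84 (0.85 to 2.83) or 3.58-fold. Ltbp2 averaged 10.31 in Arid4bSCKO testes and 8.44 in control testes, a difference of 1.87 (0.88 to 2.85) or 3.64-fold. Ltbp3 and Ltbp4 were at -0.06 and -0.01. Fstl3, an antagonist of activins, was at 1.04 (0.76 to 1.33), or 2.06-fold, and Nbl1, a BMP antagonist, at 0.32 (0.18 to 0.45). Thbs1, which completes the genes called higher and can activate latent TGF-beta, was at 1.17 (0.15 to 2.20). Of 12 Sertoli cell markers 5 were called lower, as was Amhr2, and 2 higher. Their median was -0.62, with differences from -1.62 to 0.95. Their summed level was 36717 normalized counts in Arid4bSCKO and 63364 in control. A gene that was not called held 6330 of the Arid4bSCKO sum and 19510 of the control sum. Nr5a1 was at -0.53 (-0.78 to -0.29) and Cldn11 at 0.95 (0.32 to 1.58). The part of Sertoli cells in the differences of the secreted genes and of Amhr2 was not tested.

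Other response genes had a median of 0.13, and 5 of 25 were called higher and 2 lower. Over all genes tested, 7.37% were called higher and 6.46% lower. The 2 lower were Smad6 and Tgif1, which also belong to the inhibitors, and Ltbp2 is shared with the latency proteins. Cdkn2b, which encodes the cell cycle inhibitor p15 and is a known target of TGF-beta, averaged 7.80 in Arid4bSCKO testes and 4.76 in control testes, a difference of 3.05 (1.26 to 4.84) or 8.27-fold. Cyr61, a matricellular gene, averaged 12.15 in Arid4bSCKO testes and 9.64 in control testes, a difference of 2.51 (1.21 to 3.82) or 5.70-fold. Ctgf, another matricellular gene, fell outside the rule for named genes and was picked with its value in view, at 1.50 (0.44 to 2.57). Genes of the list that were not called included Skil, Pmepa1 and Klf10, known targets of TGF-beta, at -0.05, 0.31 and -0.10, and the collagen genes Col1a1 and Col3a1, at 0.28 and 0.07. With the length trend removed Pmepa1 was called (0.41, moderated limma adjusted p = 0.0496). Cyr61, Ctgf and Thbs1 are also known to be induced by serum and by mechanical force. Immediate-early genes moved with them: 9 of 14 were called higher and 0 lower, with a summed level of 14352 normalized counts in Arid4bSCKO and 8226 in control. Atf3 was at 3.70 (2.68 to 4.71) and Ier2 at 0.51 (0.34 to 0.67). The part of such a response in the higher genes of this list was not tested.

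**Figure D5:**
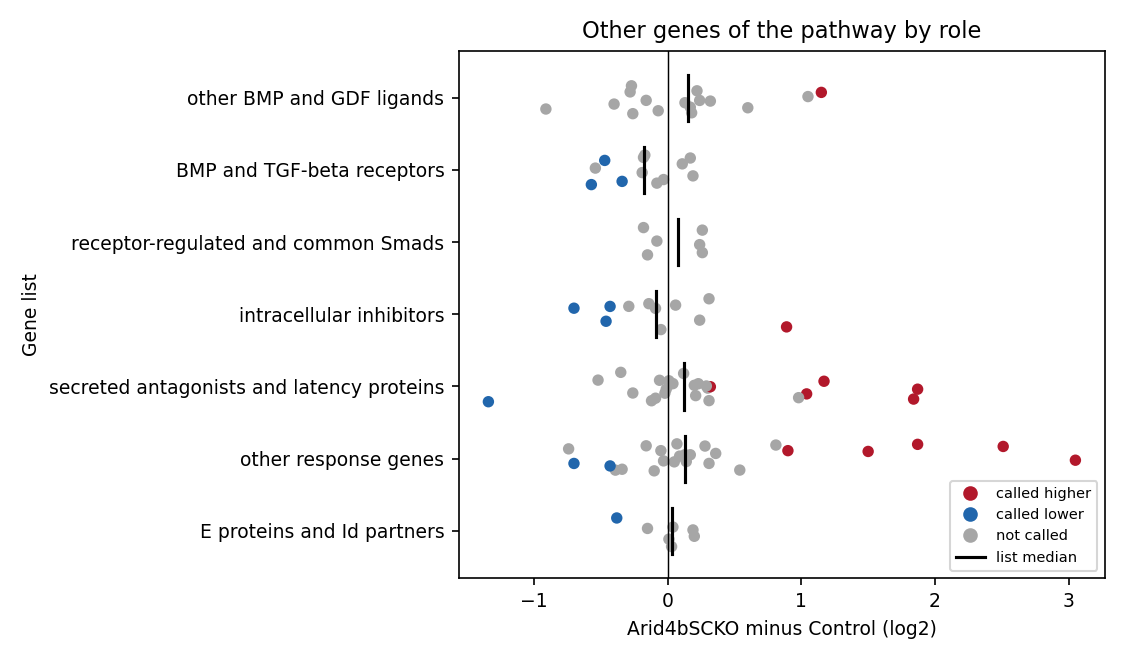
Arid4bSCKO minus control difference (horizontal axis, log2) of each tested gene in the 7 lists of other pathway genes (vertical axis; the vertical position within a row has no meaning), in red where called higher, blue where called lower and grey where not called, with a black line at the list median. The medians lie between -0.17 and 0.15, and the points far to the right include Cdkn2b at 3.05, Cyr61 at 2.51, Ltbp2 at 1.87 and Ltbp1 at 1.84.

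In each list, the other genes named Bmp or Gdf and the partners of the Id proteins, 1 gene was called, where 13.8% of all genes tested were called. Of 18 other genes named Bmp or Gdf, 16 were tested and 1 was called, Gdf15, a stress-induced cytokine that signals through a receptor outside the family. Gdf15 averaged 8.43 in Arid4bSCKO testes and 7.29 in control testes, a difference of 1.15 (0.83 to 1.46) or 2.22-fold. Of 8 E proteins and other partners of Id proteins 7 were tested, and Tcf4, an E protein gene, was called lower at -0.38 (-0.63 to -0.13), though not with the length trend removed (-0.22, moderated limma adjusted p = 0.134).

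Of the 10 genes, 3 share exon bases with a gene annotated on the opposite strand in GENCODE M21 (Bmp4, Tgfb2 and Tgfb3), over 89 to 257 bases per pair of genes. The libraries preserved strand, but whether counting used it is not given in the sources used here, so reads of these partners may be included.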

How the data were processed

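Poly(A) RNA of whole testes was sequenced from both ends with a stranded kit, per the labels' protocols. The submitters' processing notes name STAR 2.4 and mm10; how reads were counted, annotated and normalized is not given in the sources used here. Per gene, the deposited table holds the authors' group means of log2 normalized counts, their log2 ratio of medians, a p-value assuming equal variance and an FDR, per the file headers and column descriptions. That 1 was added before the log was read from values of 0 and of single reads. Reads per library, read from genes with 1 read in each library of a group, are approximate.

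The deposited FDR below 0.05 was the first call rule. For the second, the variance implied by each difference and p-value (4 degrees of freedom) was shrunk with limma 3.58.1 in R 4.3.3 (squeezeVar, trend on level, robust, median prior degrees of freedom 7.46) over the 19095 genes at a level of 1 or more, with Benjamini-Hochberg adjustment; 529 rows with a filled-in value stayed out. The procedure was run on counts simulated with the same dispersion for all genes. That setting cannot test how the calls depend on the variance prior. Transcript lengths from GENCODE M21 covered 93.1% of these genes, and starts were converted to count from 1. Alternatives changed the filter on level, the variance prior, trends over level and length, the size of change and the use of medians. The 10 genes and the lists were chosen with earlier results of these data known. Named genes are the 10, Arid4b, up to 5 called genes per pathway list by smallest deposited p (or the smallest where none was called) and 2 per marker list; any other gene was added with its value in view. Some genes counted in the pathway lists are not reported here by name.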

Additional observations from a re-analysis of the deposited data

How the results depend on the processing

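The calls of the 10 genes depended on the variance prior. Of the 10, 0 were called without the trend on level and robust fitting, against 3 with them, and 4 passed when the deposited p was left unadjusted, against 0 by the deposited FDR. Readjusting the deposited p over genes with a level of at least 1 or 3 left 0. When a change of at least 1.5-fold was also asked for, 2 of the 10 stayed, without Tgfb3. The other settings of the moderated test (other filters on level, and the trend over level or transcript length removed) left 3 called. Of the other pathway genes 19 were called, 3 without the trend and robust fitting (Gdf15, Fkbp1a and Fstl3) and 12 with that change asked for. With the trend over transcript length removed, 4 uncalled genes changed sign and stayed uncalled, Id1 to -0.03, Ltbp3 to 0.06, Ltbp4 to 0.11 and Skil to 0.08, and the genes called over the whole table were 1524 higher and 797 lower (65.7% higher) in place of 1408 and 1233 (53.3%). With the trend over level removed, Col3a1, also uncalled, changed sign to -0.06. The cause was not tested. Using the ratio of medians moved none of the 57 named genes by more than 1 implied standard deviation. No paired analysis was possible because the table holds group means and no value per pool, and for the same reason no pool could be left out in turn. Genes with few reads carry counting noise.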
